A study of Mus musculus with 10 samples.

Results

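The proteasome subunit genes described here were the rows of the count table whose symbols join Psma, Psmb, Psmc, Psmd or Psme to a number, without *Psmb8* and *Psmb9*, and whose counts over the 10 libraries summed to at least 100. The symbol pattern matched 43 rows, and 40 of the 55453 genes in the table met the whole rule. The members were thus selected on their symbols and on 1 measured value, the summed count, and not on a difference between treatments. *Psmb11*, the thymus subunit, was counted 0 times and lay outside. *Psma8*, a testis subunit of the alpha ring, was the lowest gene inside with 3468 counts, followed by *Psmb5* with 3863. The 40 genes were 8 of the alpha ring (*Psma1* to *Psma8*), 8 of the beta ring (*Psmb1* to *Psmb7* and *Psmb10*), 6 ATPases (*Psmc1* to *Psmc6*), 14 other genes named for the regulatory particle (*Psmd1* to *Psmd14*) and 4 activators (*Psme1* to *Psme4*).

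Microglia were sorted as CD45int CD11b+ cells from the hippocampi of female 3xTg mice older than 15 months. The mice had received glatiramer acetate (GA), a polypeptide drug for multiple sclerosis, or phosphate-buffered saline (PBS) as its vehicle for 8 weeks. GA was dosed at 0.1 mg, and each treatment gave 5 libraries of pre-amplified RNA. Both groups were transgenic, and no library of non-transgenic mice was analysed here. By the methods of the study, the 3xTg line carries mutated human transgenes, among them *APP* with the Swedish mutation and *MAPT*, under the Thy1.2 promoter, a promoter that acts in neurons. The labels do not say whether each library came from a separate animal, so the p-values measure the spread between these libraries. The PBS libraries were titled 388_1 to 388_5 and the GA libraries 394_1, 394_2, 400_1, 400_2 and 400_3. The meaning of the prefix is not given in the sources used here, and prefix and treatment cannot be told apart.

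The proteasome degrades proteins that carry ubiquitin chains. Its core particle (20S) is a barrel of 2 outer alpha rings and 2 inner beta rings, and the beta rings hold the proteolytic sites. A regulatory particle (19S) with a ring of ATPases binds the chain, removes it, unfolds the substrate and threads it into the core. *Psmb5*, *Psmb6* and *Psmb7* encode the chymotrypsin-like, caspase-like and trypsin-like sites. In immune cells, and under interferon gamma, *Psmb8*, *Psmb9* and *Psmb10* replace these subunits and form the immunoproteasome, which changes the peptides available for MHC class I. Microglia are the resident macrophages of the brain and digest much of what they engulf in lysosomes, beside the proteasome.

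The promoters of 4 members are shown because 3 of them, *Psmb5*, *Psmd11* and *Psmd13*, had the smallest p-values for lower counts in GA, and *Psmb6* is the catalytic neighbour of *Psmb5* with the same motif. Each sequence was taken from RefSeq on GRCm38.p6, runs 5′ to 3′ on the strand of the gene and covers 250 bases before and 50 bases from the annotated start. Capitals mark each match to TGACNNNGC, the core of the antioxidant response element to which the factors encoded by *Nfe2l1* and *Nfe2l2* bind, or to CCGGAAG, a core bound by ETS factors, on either strand. The regions are chr14:54617946-54618245 on the minus strand for *Psmb5*, chr11:80428365-80428664 on the plus strand for *Psmd11*, chr7:140882144-140882443 on the plus strand for *Psmd13* and chr11:70525107-70525406 on the plus strand for *Psmb6*. In GENCODE the gene *Psmd13* begins at chr7:140881968, upstream of the whole window shown, so the RefSeq start used for it lies inside that gene.
Psmb5: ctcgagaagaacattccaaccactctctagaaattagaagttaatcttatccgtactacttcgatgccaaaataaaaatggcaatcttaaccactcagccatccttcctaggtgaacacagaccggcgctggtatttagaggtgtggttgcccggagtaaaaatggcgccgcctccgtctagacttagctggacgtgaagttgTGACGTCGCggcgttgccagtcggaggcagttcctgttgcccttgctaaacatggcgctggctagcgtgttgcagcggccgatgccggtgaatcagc
Psmd11: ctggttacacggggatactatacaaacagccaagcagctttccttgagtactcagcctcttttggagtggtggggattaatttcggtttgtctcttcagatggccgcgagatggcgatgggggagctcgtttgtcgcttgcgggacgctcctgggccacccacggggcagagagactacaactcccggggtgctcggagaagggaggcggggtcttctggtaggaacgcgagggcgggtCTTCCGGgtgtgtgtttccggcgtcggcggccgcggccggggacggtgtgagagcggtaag
Psmd13: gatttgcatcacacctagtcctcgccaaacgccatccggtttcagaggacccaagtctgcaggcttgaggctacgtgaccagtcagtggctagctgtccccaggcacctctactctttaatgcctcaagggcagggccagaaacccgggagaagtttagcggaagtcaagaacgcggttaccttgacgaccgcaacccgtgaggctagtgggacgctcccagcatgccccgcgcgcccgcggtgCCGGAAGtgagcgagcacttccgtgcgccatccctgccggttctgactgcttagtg
Psmb6: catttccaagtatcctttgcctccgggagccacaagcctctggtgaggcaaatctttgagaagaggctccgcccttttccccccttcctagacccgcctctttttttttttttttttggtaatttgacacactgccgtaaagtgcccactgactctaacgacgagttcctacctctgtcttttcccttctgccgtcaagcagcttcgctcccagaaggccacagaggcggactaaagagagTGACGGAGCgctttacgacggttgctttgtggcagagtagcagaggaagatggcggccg

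The match in the *Psmb5* promoter began 47 bases before the start, and that of *Psmb6* began 9 bases before it. In *Psmd11* the match to CCGGAAG lay on the reverse strand 11 bases before the start, and in *Psmd13* on the forward strand 6 bases before it. At least 1 promoter was found for 33 of the 40 members. A gene was counted where any of its promoters held the motif, so a gene with several promoters had more chances of a match. TGACNNNGC occurred in 6 of these 33 genes (18.2%), against 14.0% of all 27025 genes with a promoter and 17.1% of such genes tested here. CCGGAAG occurred in 12 of 33 (36.4%), against 9.9% of all genes with a promoter and 20.7% of those tested. CCAAT, the box bound by NF-Y, occurred in 12 of 33 (36.4%), against 41.1% of all genes with a promoter and 42.9% of those tested. TTCNNNGAA, the letters of the interferon gamma activated site, occurred in 1 of 33, *Psmd2* (3.0%). It occurred in 9.6% of all genes with a promoter and 8.3% of those tested. All 4 motifs were searched on both strands with overlaps allowed. A match describes the letters in this window and not the binding of a factor.

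Library totals ran from 32332185 to 38764643 counts. Microglial markers summed to 52820 to 62584 counts per 1000000 (CPM) per library, and each of the 9 microglial markers was detected in every library. The markers of neutrophils (8 genes) summed to 9.76 to 424 CPM, those of monocytes (5 genes) to 27.8 to 83.6 CPM and those of border macrophages (6 genes) to 43.3 to 246 CPM. Neutrophil markers were at 247 ± 155 CPM (SD, n = 5) in PBS and 65.9 ± 63.8 CPM in GA. Of the 8 neutrophil markers, 7 were detected in every library, and *Ly6g*, the defining surface marker, was at 0 in GA 394_1 and 400_1 only. The part of these cells in the results below was not tested. CPM values here are scaled by the trimmed mean of M-values (TMM), and in sorted bulk RNA fewer cells of a type and less RNA per cell cannot be told apart.

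The 40 proteasome genes took 0.346% ± 0.0195 of the counts of the PBS libraries and 0.342% ± 0.0140 of those of the GA libraries (SD, n = 5 each). Their summed level was 3446, 3245, 3431, 3772 and 3425 CPM in the PBS libraries. In the GA libraries it was 3460, 3191, 3428, 3416 and 3598 CPM. The highest library was PBS 388_4 and the lowest was GA 394_2, the groups overlapped over most of their range, and the means of 3464 ± 191 and 3419 ± 146 CPM differed by less than either SD.

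Per length, the members were not expressed evenly. Levels were compared as CPM per kilobase of all annotated exons, with the SD over the 10 libraries, and neighbours in the order were counted as alike where they differed by less than the larger of their SDs. In the beta ring the order ran from *Psmb2*, a structural subunit, at 77.4 ± 5.94 to *Psmb7* at 7.31 ± 0.604 CPM per kb, and 0 of 7 neighbouring pairs were that close. Between these lay *Psmb6* at 59.2 ± 3.42, *Psmb10* at 51.7 ± 4.71, the structural subunits *Psmb4*, *Psmb1* and *Psmb3* at 26.6, 19.2 and 17.7, and *Psmb5* at 12.2 ± 1.58 CPM per kb. Among the catalytic genes, *Psmb10* thus had a higher level per length than *Psmb7*, the subunit it replaces, in these cells.

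The alpha ring, whose N-termini close the gate of the barrel, ran from *Psma6* at 68.8 ± 6.98 to *Psma3* at 14.0 ± 1.07 CPM per kb among its broadly expressed genes. *Psma8* was far below them at 3.96 ± 0.907. The levels of *Psma5*, *Psma4* and *Psma2* (23.0, 20.7 and 20.3 CPM per kb) were neighbours, and both *Psma5* and *Psma4* were within 1 SD of the next gene in that order. *Psma1* at 44.1 and *Psma7* at 39.6 CPM per kb lay between *Psma6* and this trio. The ATPase ring had the narrowest range, from *Psmc5* at 69.8 ± 4.16 to *Psmc6* at 17.7 ± 1.55 CPM per kb, a ratio of 3.95. *Psmc3*, *Psmc1*, *Psmc4* and *Psmc2* followed *Psmc5* at 62.3, 55.8, 49.1 and 27.1 CPM per kb.

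Of the other genes of the regulatory particle, *Psmd2*, a scaffold subunit that receives ubiquitin-like domains, was highest at 48.4 ± 2.60 CPM per kb. *Psmd14*, the deubiquitinase that cuts the chain from the substrate, was at 19.9 ± 1.81 and *Psmd4*, a ubiquitin receptor, at 39.6 ± 2.27 CPM per kb. The genes whose products act as assembly chaperones and leave the finished particle stood at the bottom of this list, with *Psmd10* at 15.4 ± 0.872, *Psmd5* at 9.74 ± 0.886 and *Psmd9* at 3.31 ± 0.242 CPM per kb, the lowest of the 40 with this length. *Psmd7*, *Psmd8*, *Psmd12*, *Psmd6*, *Psmd3*, *Psmd13*, *Psmd1* and *Psmd11*, structural subunits, filled the range between 42.7 and 16.5 CPM per kb. Of the 13 neighbouring pairs in this list, 5 were within 1 SD. Among the activators, *Psme2* (58.9 ± 6.81) and *Psme1* (55.4 ± 6.59), the partners of the interferon-inducible PA28 ring, were within 1 SD, *Psme3*, its nuclear relative, was at 33.9 ± 1.598, and *Psme4*, a large activator on its own, was at 4.04 ± 0.415 CPM per kb.

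**Figure D1:**
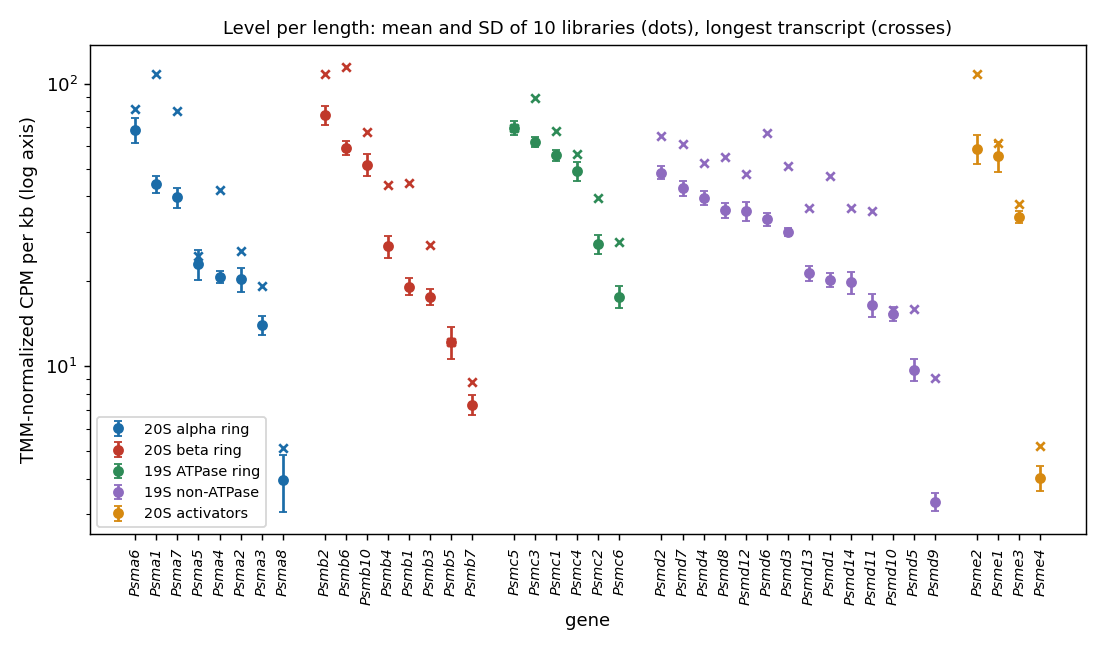
Levels of the 40 proteasome genes per length, in TMM-normalized CPM per kb on a log axis, by subcomplex. Dots and bars are the mean and SD over the 10 libraries with the length of all exons, and crosses are the means with the length of the longest transcript. *Psmb2*, *Psmc5* and *Psma6* were highest at 77.4, 69.8 and 68.8 CPM per kb, and *Psme4*, *Psma8* and *Psmd9* lowest at 4.04, 3.96 and 3.31.

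Over the 20 broadly expressed genes of the alpha, beta and ATPase rings, without *Psma8* and *Psmb10*, the ratio of the highest to the lowest level was taken in each library. Its mean over the 10 libraries was 10.6, and 13.3 with the length of the longest transcript. With that length, *Psmb6*, *Psma1*, *Psmc3* and *Psmd6* replaced *Psmb2*, *Psma6*, *Psmc5* and *Psmd2* as the highest of their lists, while *Psmb7*, *Psma8*, *Psmc6*, *Psmd9* and *Psme4* remained the lowest of theirs. *Psmd9* was then at 9.11 CPM per kb, and *Psma8* at 5.14 was the lowest of the 40. Some members share sequence with other transcripts, and how such reads were counted is not given in the sources used here. The share of 100-base windows of its transcripts found also in another gene was 44.5% for *Psme2* (in *Psme2b*), 27.5% for *Psma5*, 24.9% for *Psmb5* (in *Gm3375* and *Mir686*), 20.6% for *Psma3*, 20% for *Psmb7* (in *Nek6*) and 18.0% for *Psmb3*. Exons of *Gm26745* overlapped 25.5% of the exon length of *Psmd9*. The levels of these genes are uncertain, and the shares do not bound the error: with windows of 50 bases they were 57.1% for *Psmb5*, 55.8% for *Psmb3* and 55.4% for *Psma5*.

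The comparison of GA with PBS asks whether the treatment of the mice left a mark on the proteasome genes of their microglia. Of the 40 members, 0 passed an adjusted p of 0.05 in edgeR's quasi-likelihood F-test with Benjamini-Hochberg adjustment, where 0 of the 14481 genes tested (0%) were called. DESeq2 called 2 of 27495 genes (0.00727%) and 0 members, and *Psmb5* and *Psmd11* were its 2 members at an unadjusted p under 0.05, against 4.53% of its genes. All 40 members passed the filter on low counts, with 225 to 7696 counts per library. At an unadjusted p under 0.05 there were 2 of 40 members (5%), against 5.75% of all genes tested, and both were lower in GA (3.17% of all genes tested were lower and 2.58% higher at that p). Adjusted p-values of the members ran from 0.847 to 0.999.

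The log2 fold changes of the members, GA against PBS, had a median of -0.018, beside 0.0002 over all genes tested, and 16 members were above 0 and 24 below, where 50.1% of all genes were above 0. Their standard errors had a median of 0.076, against 0.135 over all genes tested. For 39 of the members the 95% intervals lay between -0.50 and 0.29. *Psma8*, with few counts, had an interval of -0.08 to 0.71. By subcomplex, the median log2 fold change was -0.04 in the alpha ring (3 higher, 5 lower), -0.04 in the beta ring (1 higher, 7 lower), -0.02 in the ATPase ring (2 higher, 4 lower), 0.004 in the other genes of the regulatory particle (7 and 7) and 0.04 in the activators (3 higher, 1 lower).

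**Figure D2:**
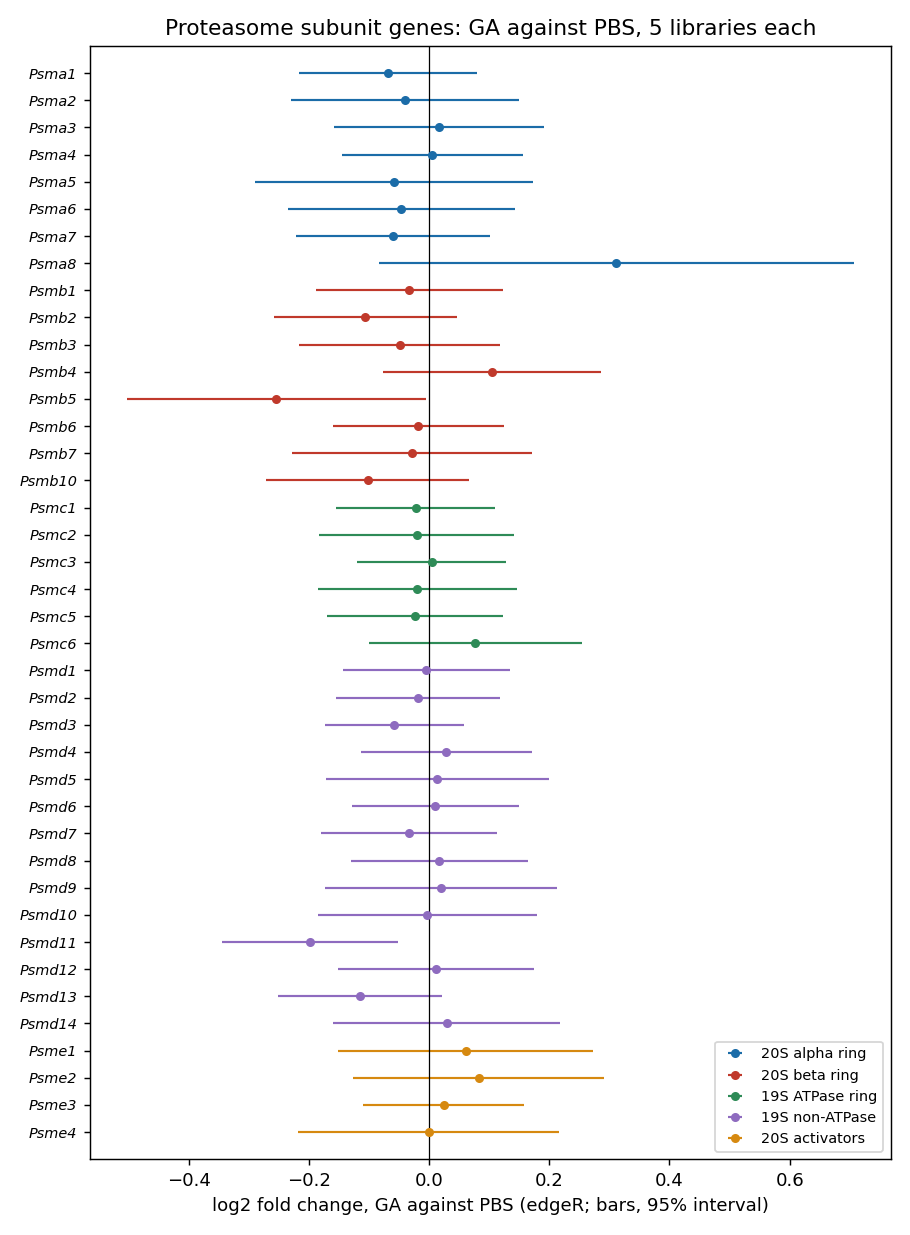
The log2 fold change of each of the 40 proteasome genes, GA against PBS with 5 libraries each, from edgeR, with bars for the 95% interval and colours for the subcomplex. The intervals of *Psmb5* and *Psmd11* lie below 0, the other 38 cross it, and that of *Psma8* is the widest (-0.08 to 0.71).

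*Psmb5*, which encodes the chymotrypsin-like site and is the target of proteasome inhibitor drugs, was at 11.5, 10.7, 10.6, 13.4 and 13.5 CPM in the PBS libraries. In the GA libraries it was at 9.95, 9.43, 10.1, 10.2 and 10.4 CPM. All 5 GA libraries were below every PBS library, and the PBS libraries 388_4 and 388_5 stood above the other three. It was the only member whose groups did not overlap, where 129 of all genes tested (0.891%) had groups that did not. The means were 11.9 ± 1.44 and 10.01 ± 0.361 CPM (SD, n = 5 each), a log2 fold change of -0.25 (SE 0.12, 95% interval -0.50 to -0.0044). By edgeR's quasi-likelihood F-test the unadjusted p was 0.0466 and the adjusted p 0.859, and a two-sided exact permutation test gave p = 0.00794, the smallest that the 252 arrangements of these libraries can give. With 1 library left out in turn, the unadjusted p was under 0.05 in 2 of 10 fits, those without 388_2 and without 388_3, and the log2 fold change ran from -0.29 to -0.20. Each library held 332 to 478 counts of *Psmb5* (ENSMUSG00000022193.7, chr14:54614119-54618022), and *Mir686* overlapped 12.1% of its exon length.

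*Psmd11* (ENSMUSG00000017428.16, chr11:80428615-80473248) encodes a structural subunit that holds the regulatory particle to the core. It was at 110, 100, 111, 125 and 117 CPM in the PBS libraries. In the GA libraries it was at 94.5, 97.6, 105, 97.1 and 95.9 CPM. Of the 5 GA libraries, 4 lay below every PBS library, and 400_1 lay above PBS 388_2. The means were 112 ± 9.05 and 97.9 ± 3.91 CPM (SD, n = 5 each), a log2 fold change of -0.20 (SE 0.07, 95% interval -0.34 to -0.05) with an unadjusted p of 0.0116 and an adjusted p of 0.847 by edgeR's quasi-likelihood F-test, and p = 0.0159 by a two-sided exact permutation test. Its unadjusted p stayed under 0.05 when any 1 library was left out, and was 0.0655 with the GA libraries of prefix 394 alone and 0.0623 with those of prefix 400 alone. *Psmd13*, another structural subunit of the lid, was at 75.0, 71.1, 72.9, 78.8 and 77.1 CPM in PBS. In GA it was at 63.8, 68.3, 70.1, 72.5 and 71.4 CPM, and 3 of 5 GA libraries lay below every PBS library. Its log2 fold change was -0.12 (SE 0.06, unadjusted p = 0.0919, adjusted p = 0.895 by edgeR), with p = 0.0238 in the two-sided exact permutation test. *Sirt3* exons overlapped 10.1% of its exon length, and its log2 fold change was -0.18 with the GA libraries of prefix 394 alone and -0.07 with those of prefix 400 alone. *Psmd3*, a lid subunit named here after its value was seen, was at 151 ± 3.77 CPM in PBS and 145 ± 3.49 CPM in GA (SD, n = 5 each), with 3 of 5 GA libraries below every PBS library and p = 0.0476 in the two-sided exact permutation test. In all, 4 of 40 members (10%) had an exact permutation p under 0.05, against 5.84% of all genes tested.

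**Figure D3:**
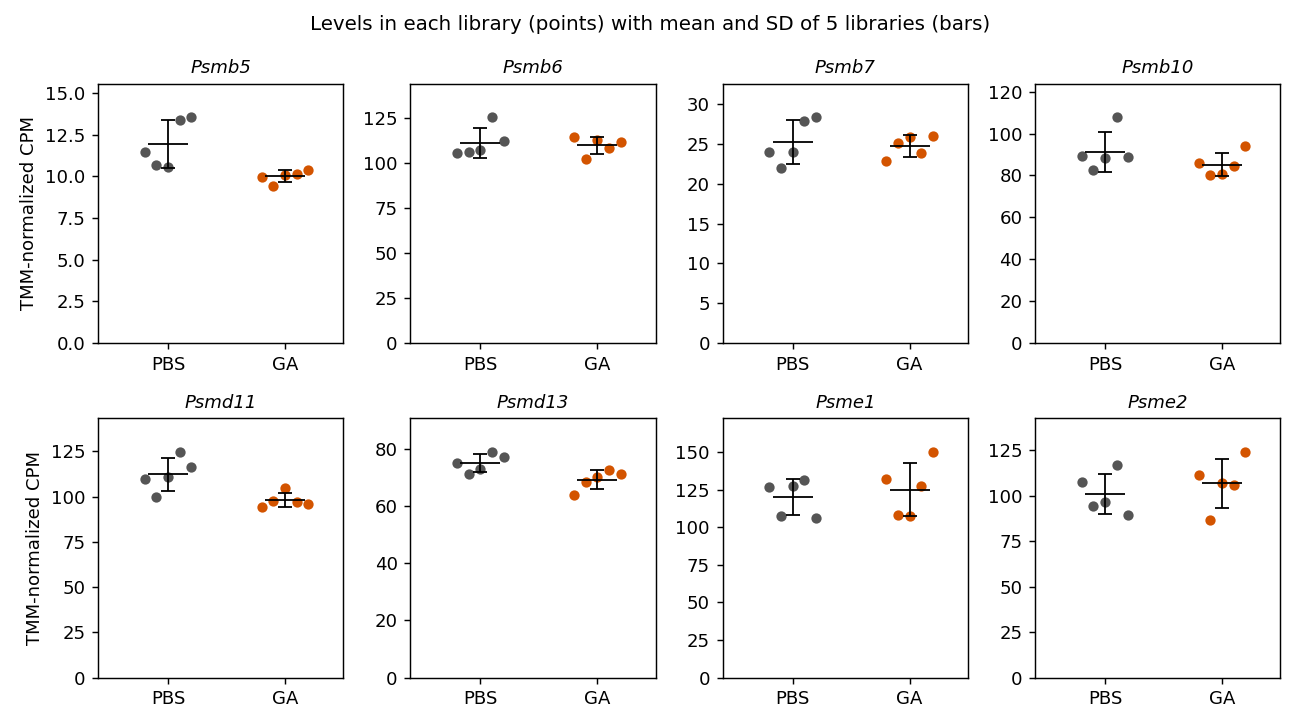
TMM-normalized CPM of 8 proteasome genes in each of the 5 PBS and 5 GA libraries, with bars for the mean and SD. The groups are apart in *Psmb5* (10.6 to 13.5 in PBS, 9.43 to 10.4 CPM in GA) and overlap in the other 7.

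The other catalytic genes did not share the separation of *Psmb5*. *Psmb6* was at 106, 106, 107, 126 and 112 CPM in PBS and at 114, 103, 113, 109 and 112 CPM in GA. *Psmb7* was at 24.0, 21.96, 24.0, 27.9 and 28.4 CPM in PBS and at 22.9, 25.1, 25.9, 23.9 and 26.1 CPM in GA. In both genes the groups overlapped almost entirely and 388_4 was among the highest libraries. Their log2 fold changes were -0.02 (SE 0.07) and -0.03 (SE 0.09), and both changed sign without 388_4, to 0.03 for *Psmb6* and 0.0095 for *Psmb7*. *Psmb10*, the inducible trypsin-like site, was at 89.1, 82.7, 88.3, 108 and 88.9 CPM in PBS and at 86.1, 80.3, 80.7, 84.6 and 93.9 CPM in GA. Here too the highest library was 388_4, and the log2 fold change was -0.10 (SE 0.08, unadjusted p = 0.217, adjusted p = 0.911 by edgeR) and -0.04 without 388_4. A difference between *Psmb5* and these genes was not tested.

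*Psmb2*, with the highest level per length, was at 95.7, 87.8, 97.4, 109 and 93.0 CPM in PBS and at 93.5, 83.9, 89.8, 85.9 and 95.7 CPM in GA. Its log2 fold change was -0.11 (SE 0.07, 95% interval -0.26 to 0.05), and -0.06 without 388_4. *Psmb4*, a structural beta subunit, was the only beta gene with a value above 0, at 50.1, 44.3, 44.7, 56.5 and 54.4 CPM in PBS and 50.3, 50.9, 55.1, 56.1 and 56.4 CPM in GA. The 5 GA libraries lay in the upper part of the PBS range, and the log2 fold change was 0.11 (SE 0.08, unadjusted p = 0.232, adjusted p = 0.919 by edgeR). It was 0.07 without 388_2 or without 388_3 and 0.15 without 388_4, and 0.02 with the GA libraries of prefix 394 alone and 0.17 with those of prefix 400 alone. *Psmb1* and *Psmb3* were at -0.03 and -0.05 on the log2 scale.

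In the alpha ring, the 7 broadly expressed genes had log2 fold changes between -0.07 (*Psma1*) and 0.02 (*Psma3*). *Psma7* was at -0.06, *Psma5* at -0.06, *Psma6* at -0.05, *Psma2* at -0.04 and *Psma4* at 0.0055. *Psma8* was at 6.65, 11.8, 10.7, 8.49 and 6.38 CPM in PBS and at 10.9, 9.01, 13.5, 11.4 and 9.88 CPM in GA. It had the largest log2 fold change of the 40, 0.31 (SE 0.18), with an unadjusted p of 0.113 and an adjusted p of 0.895 by edgeR, and the GA libraries all lay above the PBS libraries 388_1, 388_4 and 388_5, while 1 of 5 lay above the whole PBS group. Without 388_2 the log2 fold change of *Psma8* was 0.44 with an unadjusted p of 0.0299 in the same test. It was 0.18 with the GA libraries of prefix 394 alone, and 0.23 without 388_1 and 0.22 without 388_5.

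The ATPases stayed within a log2 fold change of -0.02 (*Psmc1*, *Psmc2*, *Psmc4* and *Psmc5*) to 0.08 (*Psmc6*), with *Psmc3* at 0.0042. *Psmc6* was at 61.3, 55.3, 54.8, 71.8 and 57.3 CPM in PBS and at 61.4, 59.2, 64.6, 64.4 and 67.4 CPM in GA. The highest of all 10 libraries was PBS 388_4 while the other 4 PBS libraries lay below 4 of the 5 GA libraries. With all libraries the log2 fold change of *Psmc6* had an SE of 0.08, an unadjusted p of 0.366 and an adjusted p of 0.945 by edgeR. Without 388_4 the log2 fold change was 0.15 with an unadjusted p of 0.0467 in the same test. It was 0.05 without 388_2 or without 388_3, and 0.01 with the GA libraries of prefix 394 alone and 0.13 with those of prefix 400 alone.

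Outside *Psmd11* and *Psmd13*, the genes of the regulatory particle without ATPase activity ran from -0.06 (*Psmd3*) to 0.03 (*Psmd14* and *Psmd4*) in log2 fold change. *Psmd7* was at -0.03, *Psmd2* at -0.02, and *Psmd1*, *Psmd10*, *Psmd6*, *Psmd12*, *Psmd5* and *Psmd8* lay between -0.005 and 0.017. *Psmd9*, the lowest per length, was at 26.5, 21.8, 24.5, 23.1 and 23.3 CPM in PBS and at 21.9, 26.6, 22.6, 24.9 and 24.9 CPM in GA. These groups overlapped over nearly their whole range.

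The interferon-inducible activators *Psme1* and *Psme2* differed by less between the groups than their SDs. *Psme1* was at 126, 108, 128, 131 and 106 CPM in PBS and at 132, 108, 108, 127 and 150 CPM in GA. *Psme2* was at 108, 94.2, 96.4, 117 and 89.6 CPM in PBS and at 111, 86.6, 107, 106 and 124 CPM in GA. Both were highest in GA 400_3. Their log2 fold changes were 0.06 and 0.08 (SE 0.10 each), with unadjusted p-values of 0.547 and 0.410 and adjusted p-values of 0.961 and 0.949 by edgeR, and they were -0.01 and 0.02 without 400_3 but 0.11 and 0.15 without 394_2. With the GA libraries of prefix 400 alone they were 0.10 and 0.16, and with those of prefix 394 alone 0.0084 and -0.02. *Psme3* was at 0.02 and *Psme4* at -0.0004.

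The immunoproteasome genes outside the rule can be set beside them. *Psmb9* was at 67.5, 77.1, 75.9, 68.0 and 57.2 CPM in PBS and at 73.8, 66.9, 80.3, 75.1 and 97.5 CPM in GA, with its highest value again in 400_3. *Psmb8* was at 101, 103, 108, 130 and 114 CPM in PBS and at 105, 102, 105, 106 and 117 CPM in GA, with its highest value in 388_4. The log2 fold changes were 0.19 for *Psmb9* (SE 0.11, unadjusted p = 0.0978, adjusted p = 0.895) and -0.06 for *Psmb8* (SE 0.08, unadjusted p = 0.457, adjusted p = 0.951) by edgeR's quasi-likelihood F-test. That of *Psmb9* was 0.10 without 400_3 and 0.13 without 388_5, while without 394_2 it was 0.24 with an unadjusted p of 0.0407. With the GA libraries of prefix 394 alone it was 0.03, and with those of prefix 400 alone 0.29 with an unadjusted p of 0.0271 in the same test.

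Single libraries stood apart across many members. PBS 388_4 was the highest of the 10 libraries for 21 of the 40 members and the lowest for 0, and GA 394_2 was the lowest for 19. PBS 388_2 was the lowest for 12 members. In 388_4, 33 of 40 members were above their mean over the libraries, in GA 400_3 34, in 388_2 5 and in 394_2 4. The median distance of the members from their own means was 0.14 on the log2 scale in 388_4, 0.047 in 400_3, -0.087 in 388_2 and -0.11 in 394_2. The high and low libraries thus came from both treatments. *Psma6* in 388_4 was at 106 CPM, against 75.8 to 88.8 CPM in the other 9 libraries. Without 388_4, 27 of 40 members had a log2 fold change above 0, in place of 16, and the median was 0.016. Other libraries moved this count the other way: it was 10 of 40 without 388_2, 9 without 400_3 and 9 with the GA libraries of prefix 394 alone. It was 24 without 394_2 and 25 with those of prefix 400 alone.

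Library 388_4 had the highest summed markers of border macrophages (246 CPM) and monocytes (83.6 CPM), the lowest summed microglial markers (52820 CPM) and the highest share of mitochondrial counts (0.180%). Its neutrophil markers summed to 276 CPM, within the range of the other PBS libraries. The part of these values in the members' levels was not tested.

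**Figure D4:**
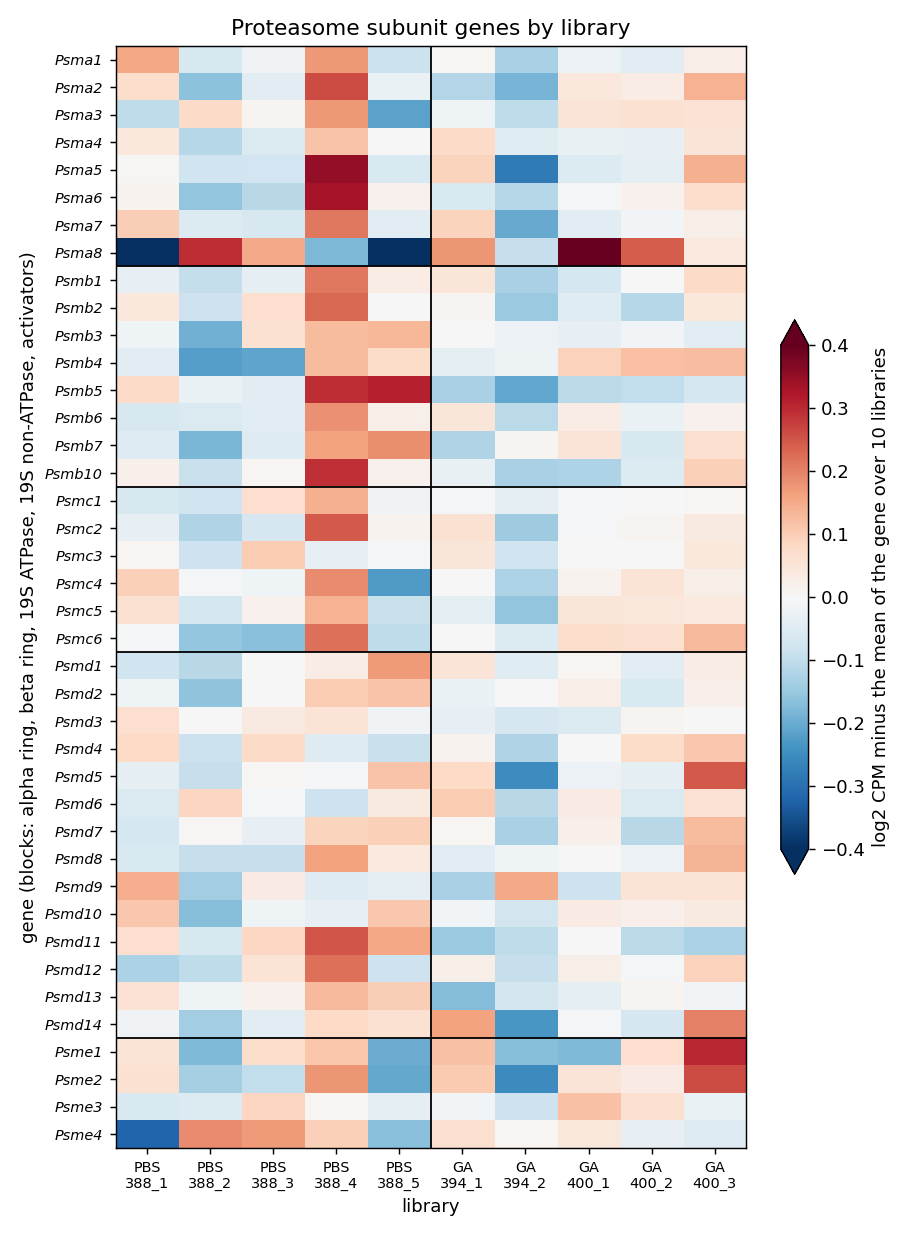
Level of each of the 40 proteasome genes in each library, as log2 CPM minus the mean of the gene over the 10 libraries (colour). Horizontal lines part the subcomplexes and the vertical line parts PBS from GA. In PBS 388_4, 33 of 40 genes were above their mean, and in GA 394_2, 4 of 40.

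Across the libraries the members varied together. The median pairwise Pearson correlation of log2 CPM over the 10 libraries was 0.41 among all 40 members, 0.69 in the alpha ring, 0.59 in the beta ring and 0.55 in the ATPase ring. It was 0.28 in the other genes of the regulatory particle and 0.17 in the activators. Between genes of the core and the ATPases the median was 0.54 over 96 pairs, and between the core and the other genes of the regulatory particle it was 0.38 over 224 pairs. The median over all genes tested was -0.0019, and over the 7652 genes in the abundance range of the members other than *Psma8* it was 0.00065. With each gene centred within its treatment group the median among all members was 0.45. These values describe 10 libraries that share their scaling, depth and cell composition. They rested in part on 388_4. Without it the median was 0.32 among all members, and 0.36 among all genes of the core, where it had been 0.58. It was then 0.49 in the alpha ring, 0.40 in the beta ring and 0.45 in the ATPase ring, so that the beta ring no longer stood above the ATPases.

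*Psma5* (median correlation with the other members 0.65), *Psma6* (0.63) and *Psmb1* (0.62) followed the other members most closely. *Psma8* (-0.16), *Psme4* (-0.12), *Psmd6* (-0.08) and *Psmd9* (-0.05) did not follow them. The first of these is a testis gene with few counts here. The last is an assembly chaperone, but the chaperones *Psmd5* and *Psmd10* were at 0.41 and 0.28. The spread of the members was small: the median coefficient of variation over the 10 libraries was 7.61%, against 10.96% for the genes in that abundance range, and 35 of 40 members were below that value. The coefficient was larger in PBS than in GA for 30 of 40 members (75%), where it was for 68.6% of all genes tested, and for 22 of 40 (55%) without 388_4, where it was for 59.6%.

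The rest of the ubiquitin-proteasome pathway was read from lists of its parts. Of the 11 other subunits and assembly factors measured (*Psmb8*, *Psmb9*, *Adrm1*, *Sem1*, *Psmg1* to *Psmg4*, *Pomp*, *Psmf1* and *Ecpas*), 9 ubiquitin enzymes and shuttles that bind the proteasome, 6 genes of ubiquitin and its activation, 7 of the VCP unfolding complex, 6 of the Nrf1 pathway and 7 of the interferon response, 0 passed an adjusted or an unadjusted p of 0.05 in edgeR's quasi-likelihood F-test or in DESeq2. The median log2 fold changes of these lists were -0.01, 0.01, -0.03, 0.01, 0.05 and 0.05. *Ubqln1*, a shuttle that carries ubiquitinated proteins to the proteasome, had the smallest p-value. It was at 223, 227, 231, 187 and 259 CPM in PBS and at 266, 249, 254, 248 and 244 CPM in GA, with means of 225 ± 25.8 and 252 ± 8.28 CPM (SD, n = 5 each). Of the PBS libraries only 388_5 reached the GA range, and the log2 fold change was 0.16 (SE 0.08, unadjusted p = 0.0520, adjusted p = 0.872 by edgeR). A two-sided exact permutation test of *Ubqln1* gave p = 0.0397, where 5.84% of all genes tested had a permutation p under 0.05. *Ubqln1* was named after its value was seen.

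*Nfe2l1*, which encodes the transcription factor that raises proteasome genes when the proteasome is inhibited, was at 117, 114, 120, 107 and 132 CPM in PBS. In GA it was at 121, 121, 129, 132 and 122 CPM. The GA libraries were above 4 of the 5 PBS libraries, and the log2 fold change was 0.09 (SE 0.07, unadjusted p = 0.223, adjusted p = 0.915 by edgeR). Without 388_5 it was 0.13 with an unadjusted p of 0.0469 in the same test, and without 388_4 it was 0.05. *Pomp*, the maturation chaperone of the core, was at 116 ± 10.3 and 113 ± 5.43 CPM (SD, n = 5 each), a log2 fold change of -0.04, and *Vcp*, the unfolding ATPase, was at 172 ± 13.4 and 166 ± 6.96 CPM, a log2 fold change of -0.05.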

How the data were processed

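RNA of CD45int CD11b+ cells was sequenced in 10 libraries, and the authors deposited raw counts of reads per gene for 55453 symbols, whole numbers without normalization. The submitters' processing notes name bcl2fastq 2.19.0, fastp 0.20.0, STAR 2.7.0f, Subread 1.6.4 with featureCounts, DESeq2 and the build GRCm38.p6. The annotation release, the strand setting and the handling of reads that match several genes are not given in the sources used here. Groups were taken from the treatment label, and 0 columns were left without a sample.

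After removal of low genes by filterByExpr (minimum count 10) and TMM scaling, the whole table was fitted with edgeR 4.0.16 in R 4.3.3 (glmQLFit and glmQLFTest, treatment alone), with Benjamini-Hochberg adjustment over 14481 genes. Alternatives were DESeq2 1.42.0, limma-voom (limma 3.58.1), robust fits, other scalings and filters, single title prefixes, a replicate block and each library left out. Permutation tests used log2(CPM + 0.1). Lengths, coordinates and shared windows came from the GENCODE M21 annotation and transcripts, and promoters from RefSeq. The total counts limit precision, and values from pre-amplified reads without molecular identifiers carry more than counting error. No pair of libraries was a copy, with a chi-square per degree of freedom of 13.01 to 50.91 over 45 pairs. The script was tested on simulated data.

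Values in every library are given for the catalytic and interferon-inducible members, the 3 members with the smallest p in each direction, the members with the highest and lowest level per length, and *Psmb8*, *Psmb9* and *Nfe2l1*. The members, lists and rules were chosen with earlier results of these data known.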

Additional observations from a re-analysis of the deposited data

Results flagged for a closer look

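A library far from the other 4 of its treatment was found for 3 of the 80 combinations of a proteasome gene and a treatment (3.75%), where chance gives about 1 in 20. *Psma5* in PBS library 388_4 was at 38.55 CPM, and the next PBS library at 30.25 CPM. *Psmb10* in the same library was at 107.7 CPM, with the next PBS library at 89.11 CPM. *Psmd8* in GA library 400_3 was at 119.9 CPM, with the next GA library at 108.8 CPM.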

How the results depend on the processing

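Under every alternative run, 0 members passed an adjusted p of 0.05. The members at an unadjusted p under 0.05 numbered 2, both lower. With limma-voom, robust edgeR fits, no low-count filter or at least 10 counts in every library there was 1, lower (*Psmd11*), where 5.65% to 6.9% of all genes had such a p, and with the GA libraries of prefix 394 or 400 alone 0, where 3.24% and 6.47% of all genes had such a p. With 1 library left out there were 1 to 3 (0 to 1 higher, 1 to 2 lower): 1, *Psmd11*, without any single GA library, without 388_1 or without 388_5, 3 without 388_2 (*Psma8* added) and 2 without 388_4 (*Psmc6* in place of *Psmb5*), where 4.04% to 7.72% of all genes had such a p. The median log2 fold change of the members ran from -0.035 to 0.016 over the libraries left out, the median correlation from 0.319 to 0.470 and the ratio of the highest to the lowest level per length, as a mean over libraries, from 10.5 to 10.8. That mean was 13.27 with the longest transcript. The pathway lists, at 0, gave 1 gene with limma-voom, robust fits, no scaling or no filter (5.57% to 6.9% of all genes), 5 with prefix 400 alone (6.47%) and 0 to 2 with 1 library left out (4.04% to 7.72%).

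Libraries with the same number in their titles did not deviate together (correlations of -0.116 to 0.0489). These correlations show no pairing by number, and the meaning of the numbers is not given in the sources used here. Numbers 4 and 5 occur only in PBS, so a fit with the numbers as a replicate block takes nothing from 388_4 and 388_5, and the block and the loss of these libraries cannot be told apart in it. In that fit 1 member, *Psmb4*, was at an unadjusted p under 0.05 (1 higher, 0 lower), where 6.79% of all genes were, and 2 genes of the pathway lists, with 27 of 40 members above 0 and a median log2 fold change of 0.032. That fit gave -0.12 for *Psmb5* and *Psmd11*, 0.18 for *Psma8* and 0.22 for *Psmb4*, and turned the log2 fold change of *Psmd9* to -0.003066, *Psmb6* to 0.05104, *Psmb7* to 0.09571 and *Psmb8* to 0.05413. Prefix 400 alone turned *Psmb6* to 0.001862 and *Psmb7* to 0.004752, and prefix 394 alone turned *Psme2* to -0.0235. With 1 library left out, the log2 fold change ran from -0.01633 to 0.06171 for *Psmd9*, -0.03578 to 0.02899 for *Psmb6*, -0.07498 to 0.02087 for *Psmb7*, -0.012 to 0.1156 for *Psme1* and -0.0928 to 0.004028 for *Psmb8*. Apart from the libraries left out by construction, the cause was not tested. With 5 libraries a group, differences inside the 95% intervals of the members could not be resolved.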
